A study of Rattus norvegicus with 9 samples.

Results

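The 10 genes described here encode 9 cathepsins, proteases of the lysosome, and cystatin C, a secreted inhibitor of the cysteine cathepsins. They were chosen by symbol (Ctsa, Ctsb, Ctsc, Ctsd, Ctsh, Ctsk, Ctsl, Ctss, Ctsz and Cst3), and all 10 were found among the 22050 genes measured by RNA-seq in NRK-49F cells. NRK-49F is an established line of rat kidney fibroblasts, labelled wild type. All 9 libraries came from this line with TGF-β1, the cytokine that drives fibroblasts to make matrix, and the labels' protocol gives a 48 h incubation. Besides the cytokine, 3 libraries had vehicle, 3 had YEXX-2A and 3 had YWCH-4A. The series title places them in a search for natural small molecules against kidney fibrosis, and they are known here only by code name, with no dose or timing. Untreated cells, lacking the cytokine, were not analysed here. The replicates are stated to be biological, but nothing says they came from separate cultures. The p-values therefore reflect only the spread among these libraries, which may be technical.

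Cathepsins are made as inactive precursors, carried from the Golgi to the lysosome by the mannose 6-phosphate receptors, and activated by its acid interior. Most are cysteine proteases (Ctsb, Ctsc, Ctsh, Ctsk, Ctsl, Ctss and Ctsz), Ctsd is an aspartic protease and Ctsa a serine carboxypeptidase. Besides ending the life of proteins taken up or delivered by autophagy, several can be secreted and cut collagen and other matrix proteins. Cystatin C blocks the cysteine cathepsins outside the cell and is best known in the kidney as a blood marker of filtration. Many lysosomal genes carry the palindrome CACGTG near their start, read by the transcription factors TFEB and TFE3.

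Of the 10 genes, Ctsd, Ctsb, Cst3 and Ctsa were called in both comparisons of YWCH-4A, with the other compound and with vehicle, and their start regions are shown for those with an entry. RefSeq's table for the GRCr8 assembly held an entry for 9 of the 10 genes, Ctsb being the other. Each window runs from 250 bases before the start of the gene to 50 bases after it, 5′ to 3′ on the gene's strand. CACGTG was searched on both strands, and its matches are in capitals. The windows are chr1:206968772-206969071 (minus strand) for Ctsd, chr3:173988193-173988492 (plus strand) for Ctsa and chr3:156793888-156794187 (minus strand) for Cst3.
Ctsd: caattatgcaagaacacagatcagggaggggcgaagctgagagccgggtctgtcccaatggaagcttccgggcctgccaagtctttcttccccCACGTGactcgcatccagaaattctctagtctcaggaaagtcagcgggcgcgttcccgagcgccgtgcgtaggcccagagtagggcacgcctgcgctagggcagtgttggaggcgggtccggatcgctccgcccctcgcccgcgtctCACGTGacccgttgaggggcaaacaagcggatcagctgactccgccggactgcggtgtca
Ctsa: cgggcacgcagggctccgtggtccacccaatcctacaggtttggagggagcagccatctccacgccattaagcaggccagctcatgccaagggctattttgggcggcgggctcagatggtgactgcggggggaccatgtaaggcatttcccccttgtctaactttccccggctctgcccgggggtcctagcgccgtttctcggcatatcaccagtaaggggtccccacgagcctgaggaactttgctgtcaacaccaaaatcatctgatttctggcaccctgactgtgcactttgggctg
Cst3: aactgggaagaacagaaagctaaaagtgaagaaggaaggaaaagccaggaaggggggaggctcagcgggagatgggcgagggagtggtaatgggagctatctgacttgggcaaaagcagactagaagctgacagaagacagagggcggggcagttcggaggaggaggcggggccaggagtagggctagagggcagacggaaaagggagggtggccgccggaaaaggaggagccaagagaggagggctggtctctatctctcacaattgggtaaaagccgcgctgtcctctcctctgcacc
The Ctsd window held CACGTG at 2 places, beginning 157 and 10 bases before the start site (positions -157 and -10). At both it was part of the longer word TCACGTG, read on one or the other strand, and at the place nearer the start on both strands. Of all 33469 windows of this length, 6.42% held CACGTG and 3.2% held TCACGTG. No other of the 9 windows held either word, which says only that these letters were not in this stretch. Such a match is a description of the sequence and not a measured binding site.

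Ctss and Ctsk both had low counts, highest with YWCH-4A when pooled, and neither had enough for the test. A last window is shown for Ctss, the cathepsin of antigen-presenting cells, the only 1 of the 9 with the repeat below. It lies at chr2:185775146-185775445 (plus strand), and the capitals mark a repeat of GAAA after any 2 bases, the kind of word that interferon regulatory factors read, searched on both strands.
Ctss: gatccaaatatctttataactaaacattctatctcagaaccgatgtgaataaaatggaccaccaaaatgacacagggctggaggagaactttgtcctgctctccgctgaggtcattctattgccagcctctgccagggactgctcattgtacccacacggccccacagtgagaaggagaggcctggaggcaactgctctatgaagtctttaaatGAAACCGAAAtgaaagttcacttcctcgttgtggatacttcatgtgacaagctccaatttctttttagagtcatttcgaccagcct
The match begins 36 bases before the start site (position -36). This repeat stood in 3.92% of all windows and in no other of the 9.

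The libraries held 13675880 to 21923706 counts. Libraries were brought to a common scale with TMM factors, and levels are given as CPM (counts over the scaled library size) for a gene across libraries and in FPKM, which divides by gene length, between genes. Vehicle replicate 2 stood apart from the other two of its group. Biological coefficients of variation were 16.7% for vehicle, 7.34% for YEXX-2A and 3.67% for YWCH-4A. Genes of the fibroblast list were led by Col1a1, Col3a1 and Vim, while Thy1 and Dcn stayed under 1 CPM. Of the epithelial markers Krt8 was high (896 CPM or more), while Epcam, Krt18 and Umod were at 0 in all 9 libraries. Each group's endothelial markers summed to at most 1.32 CPM. Of 13 macrophage and leukocyte markers, 11 never exceeded 0.407 CPM. The other two, Cd68 and Cd74, are described with the cathepsins below.

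On the length-scaled FPKM values, the 10 genes fell into a high, a low and a near-absent class. With vehicle, Ctsb (624 ± 52.5 FPKM, SD, n = 3) and Ctsd (591 ± 69.0 FPKM) stood highest, followed by Ctsl (380 ± 32.1), Cst3 (269 ± 21.4), Ctsa (104 ± 10.3) and Ctsh (57.4 ± 3.89). Ctsb ranked between 75 and 126 among all genes of a library and Ctsd between 70 and 128. Ctsc, the dipeptidyl peptidase that activates granule proteases in blood cells, was at 4.32 ± 1.21 FPKM. Ctss, Ctsk (the collagenase of osteoclasts) and Ctsz (a carboxypeptidase) stayed at or under 0.89 FPKM in all 9 libraries. The ranges of Ctsb and Ctsd overlapped in each group, narrowly so with YWCH-4A, where Ctsd spanned 867 to 902 FPKM and Ctsb 835 to 871 FPKM. From Ctsl down to Ctsc, neighbouring genes did not overlap within any group.

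**Figure D1:**
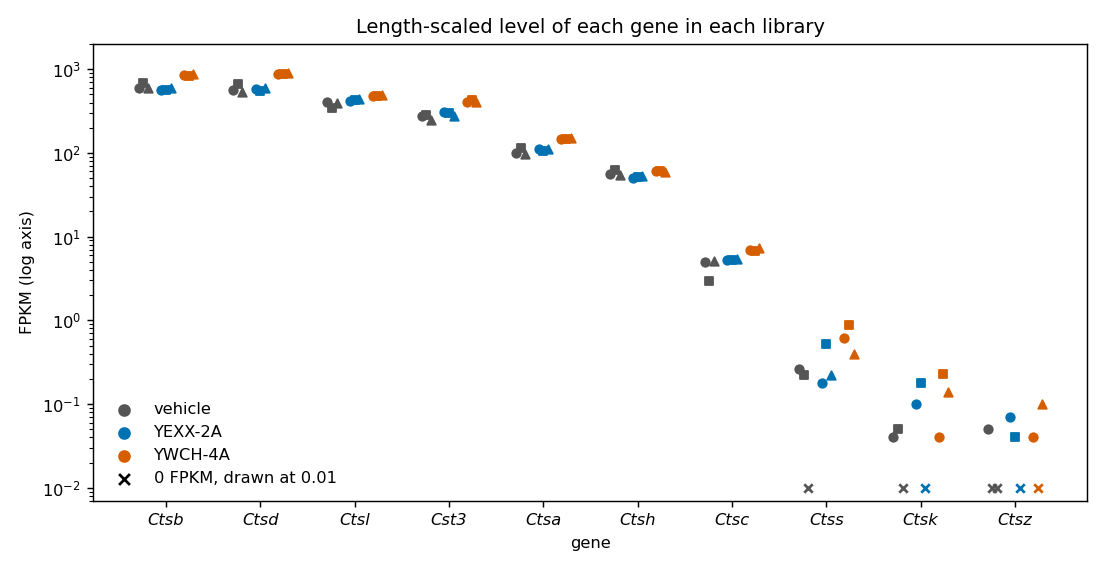
FPKM (log axis) of the 10 genes in each of the 9 libraries, coloured by group, with values of 0 drawn as crosses at 0.01. Ctsb, Ctsd and Ctsl lie above 344 FPKM, Ctsc lies between 2.92 and 7.22, and Ctss, Ctsk and Ctsz lie at or under 0.89 FPKM.

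Ctsb, Ctsl and Ctsd together made up 90.4% to 91.2% of the summed FPKM of the 9 cathepsins in every library. That sum was 1719, 1879 and 1686 FPKM with vehicle, 1733, 1704 and 1812 with YEXX-2A and 2441, 2398 and 2478 with YWCH-4A. All 3 YWCH-4A libraries thus lay above the other six, whose groups overlapped. As a share of all FPKM it was 0.353% to 0.395% with vehicle, 0.344% to 0.373% with YEXX-2A and 0.466% to 0.489% with YWCH-4A. The ratio of Cst3 to the summed cysteine cathepsins was 0.234 to 0.263 in vehicle, 0.252 to 0.294 in YEXX-2A and 0.284 to 0.306 in YWCH-4A libraries. These sums are descriptions and carry no test. On log2(FPKM + 1) the median of all genes tested was itself 0.179 higher with YWCH-4A than with vehicle. Against YEXX-2A that median was 0.076 higher.

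YWCH-4A with TGF-β1 was compared with vehicle to ask which of these transcripts differ in treated fibroblasts. Of the 7 genes with enough counts to be tested, 6 rose with YWCH-4A (Cst3, Ctsd, Ctsa, Ctsb, Ctsc and Ctsl) and Ctsh did not pass the test. Calls were made with edgeR's quasi-likelihood test where the adjusted p was under 0.05. Of all 11473 genes tested, 15.7% were called higher and 14.9% lower. The changes were small, from 1.13-fold for Ctsl to 1.43-fold for Ctsc. The 7 genes had a median log2 fold change of 0.33, and all genes tested one of 0.034. In these bulk libraries, more RNA in each cell and more cells with that RNA cannot be told apart.

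Cst3, the secreted inhibitor, had the smallest p-value of the 7. It was at 222, 251 and 201 CPM in vehicle replicates 1 to 3, at 238, 233 and 221 CPM with YEXX-2A and at 295, 312 and 305 CPM with YWCH-4A. All YWCH-4A libraries lay above all others, and the vehicle and YEXX-2A libraries overlapped. The rise over vehicle was 0.44 on the log2 scale (SE 0.08, 95% interval 0.26 to 0.61, edgeR adjusted p = 0.00185), or 1.35-fold.

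Among the high-level proteases, Ctsd, the main aspartic protease of lysosomes, moved most. Its libraries held 1172, 1508 and 1142 CPM with vehicle, 1180.2, 1117 and 1216 CPM with YEXX-2A and 1675, 1643 and 1727 CPM with YWCH-4A. Vehicle replicate 2 was the highest outside the YWCH-4A group and still below it. The rise was 0.40 (SE 0.10, 95% interval 0.18 to 0.62, adjusted p = 0.0101), and 0.54 without vehicle replicate 2 (adjusted p = 4.32e-08).

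Ctsb, a cysteine protease that also trims peptides from their ends, held 1177, 1480.1 and 1215 CPM with vehicle, 1105, 1079 and 1184 CPM with YEXX-2A and 1567, 1520.5 and 1603 CPM with YWCH-4A. Its vehicle replicate 2 came close to the lowest YWCH-4A library without reaching it. The change of 0.28 (SE 0.09, adjusted p = 0.0331) was 0.39 without vehicle replicate 2 (adjusted p = 4.29e-06). Ctsa, which besides its carboxypeptidase activity holds the lysosomal sialidase and β-galactosidase in a stable complex, showed the same layout. It stood at 234, 292 and 227 CPM with vehicle, at 250, 236 and 257 CPM with YEXX-2A and at 309, 310 and 327 CPM with YWCH-4A, a rise of 0.33 (SE 0.09, adjusted p = 0.0179). Without vehicle replicate 2 the Ctsa rise was 0.45 (adjusted p = 6.81e-07).

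Ctsl, the endopeptidase with the widest reach among the cysteine cathepsins, rose least. Its values were 687, 630 and 670 CPM with vehicle, 674, 703 and 740 CPM with YEXX-2A and 747, 740.3 and 755 CPM with YWCH-4A. The lowest YWCH-4A library stood less than 1 CPM above the highest YEXX-2A library. The change of 0.17 (SE 0.06) had an adjusted p = 0.0481, close to the threshold. Ctsc had the largest fold and the widest interval: 9.57, 6.10 and 9.91 CPM with vehicle, 9.96, 9.86 and 10.1 CPM with YEXX-2A and 12.3, 11.7 and 12.8 CPM with YWCH-4A (log2 fold change 0.52, SE 0.16, 95% interval 0.17 to 0.87, adjusted p = 0.0309). In vehicle replicate 2 Ctsc rested on 77 counts, and without that library the rise was 0.33 (adjusted p = 0.0277).

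Ctsh, an aminopeptidase, was the exception. It held 83.9, 99.8 and 82.7 CPM with vehicle, 71.5, 74.7 and 77.3 CPM with YEXX-2A and 83.2, 81.2 and 81.0 CPM with YWCH-4A. The vehicle and YWCH-4A libraries overlapped, and the difference of -0.12 was not called (95% interval -0.29 to 0.06, adjusted p = 0.292).

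**Figure D2:**
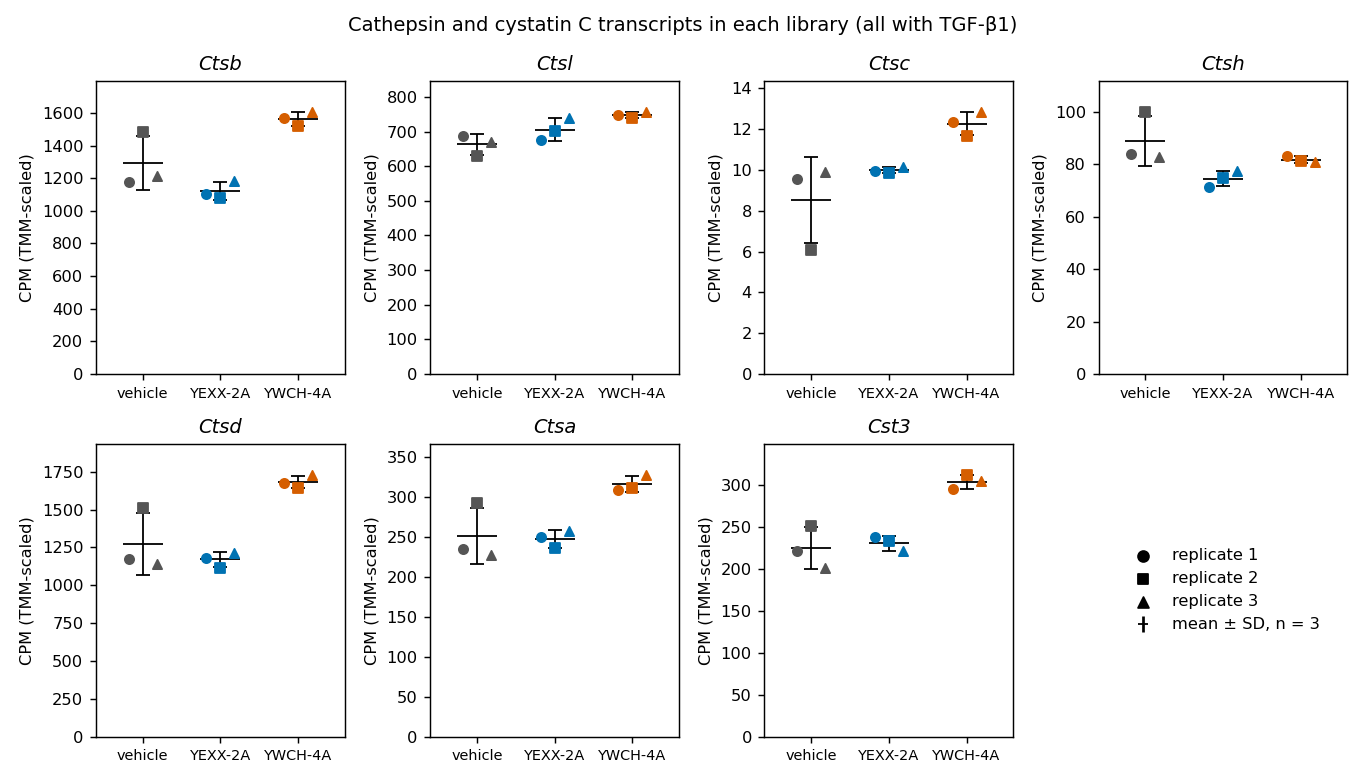
CPM of the 7 tested genes in each library, with points for replicates (circle 1, square 2, triangle 3) and bars for the mean ± SD of n = 3. The YWCH-4A points lie above all others for each gene but Ctsh. Of all genes tested, 24.9% had every YWCH-4A library above every vehicle library and 29.9% above every YEXX-2A library, and the share with both was not counted. Vehicle replicate 2 is the highest vehicle point for Ctsb, Ctsh, Ctsd, Ctsa and Cst3 and the lowest for Ctsl and Ctsc.

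The calls of Cst3 and Ctsd against vehicle held under all 20 alternative settings, with adjusted p-values of at most 0.0141 and 0.0474. Those of Ctsc, Ctsa, Ctsb and Ctsl held in 15, 14, 10 and 7 of 20. With vehicle and YWCH-4A fitted alone, only Cst3 and Ctsd stayed called. Among single libraries, the Ctsa call was lost without vehicle replicate 1 or 3 or any YWCH-4A library (adjusted p 0.0518 to 0.0808). The Ctsb call was lost without any single library other than vehicle replicate 2 and YEXX-2A replicate 3 (0.0539 to 0.119). The Ctsc call was lost without YEXX-2A replicate 1 or any YWCH-4A library (0.0523 to 0.0934), and the Ctsl call without any library other than vehicle replicates 1 and 2 (0.0583 to 0.151). The Ctsl value stayed just under the threshold without vehicle replicate 1 (0.05 after rounding). In each of these the direction was unchanged.

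Vehicle replicate 2 did not shift these genes in one direction. Against the mean of the other two vehicle libraries it was higher on the log2 CPM scale for Ctsd (0.38), Ctsa (0.34), Ctsb (0.31), Ctsh (0.26) and Cst3 (0.25) and lower for Ctsc (-0.67) and Ctsl (-0.11). Over all genes tested the median size of that difference was 0.306. The ratio of Ctsb to Ctsl FPKM was 1.99 in that library, 1.45 and 1.53 in the other vehicle libraries, 1.3 to 1.39 with YEXX-2A and 1.74 to 1.8 with YWCH-4A. What sets this library apart was not tested.

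YEXX-2A was compared with the same vehicle libraries, so the vehicle values enter both comparisons. Of the 7 genes, Ctsh fell and the others did not pass the test, while 18.5% of all genes tested were called lower and 17.6% higher. The median of the 7 was -0.02, and that of all genes 0.007. Ctsh was lower in every YEXX-2A library than in any vehicle library, a layout not counted over all genes in this direction. Its log2 fold change was -0.25 (SE 0.08, 95% interval -0.43 to -0.08, edgeR adjusted p = 0.0341). This call held in 10 of 20 alternatives. It was lost without any single library of either compound group (adjusted p 0.0511 to 0.11) and held without each vehicle library, with a smaller change of -0.16 without vehicle replicate 2 (adjusted p = 0.0265).

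For the other tested genes, the intervals rest on an estimate of spread shared by all groups, though the groups differed in spread. Ctsb was at -0.20 (95% interval -0.39 to -0.01, adjusted p = 0.0871), and it was called only without vehicle replicate 1 (-0.26, adjusted p = 0.0469). Ctsd was at -0.12 (-0.34 to 0.09), Ctsa at -0.02 (-0.22 to 0.18), Cst3 at 0.04 (-0.14 to 0.21), Ctsl at 0.09 (-0.04 to 0.22) and Ctsc at 0.22 (-0.14 to 0.58). Ctsa and Ctsd changed sign without vehicle replicate 2 (0.10 and 0.02), Ctsa also without YEXX-2A replicate 2 (0.01), and Cst3 without vehicle replicate 3 (-0.04).

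The direct comparison of the compounds, at doses that the labels do not give, tests whether they differ. Ctsd, Ctsb, Cst3 and Ctsa were higher with YWCH-4A than with YEXX-2A, and none of the 7 was lower. Of all genes tested, 16.2% were called higher and 15.1% lower. The 7 genes had a median log2 difference of 0.35, and all genes tested one of 0. Ctsd differed by 0.52 on the log2 scale (SE 0.10, 95% interval 0.31 to 0.74, adjusted p = 0.00259), or 1.44-fold. Ctsb differed by 0.48 (SE 0.09, 0.29 to 0.67, adjusted p = 0.00208), Cst3 by 0.40 (SE 0.08, 0.22 to 0.57, adjusted p = 0.00349) and Ctsa by 0.35 (SE 0.09, 0.15 to 0.55, adjusted p = 0.014).

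The other three did not pass the test between the compounds. Ctsc differed by 0.30 (95% interval -0.04 to 0.64, adjusted p = 0.168), Ctsh by 0.14 (-0.04 to 0.31, adjusted p = 0.22) and Ctsl by 0.08 (-0.05 to 0.22, adjusted p = 0.312). Even so, every YWCH-4A library lay above every YEXX-2A library for all 7 tested genes, a layout that 29.9% of all genes tested had. Against vehicle the layout held for 6 of the 7, Ctsh excepted, and for 24.9% of all genes.

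The calls of Ctsb, Ctsd and Cst3 between the compounds held under all 20 alternatives. That of Ctsa was lost without YEXX-2A replicate 2 (adjusted p = 0.071) or YWCH-4A replicate 3 (0.0647). Ctsh was called in 5 of the 20 and Ctsc in 3, among them the fit of the 2 groups alone (adjusted p = 0.0269 and 0.0193), the fit with group quality weights (0.0356 and 0.0198) and that lacking vehicle replicate 2 (0.0221 and 0.0173). On the FPKM scales Ctsh was called (0.0118 and 0.0119). Ctsl was called in 0 of the 20.

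**Figure D3:**
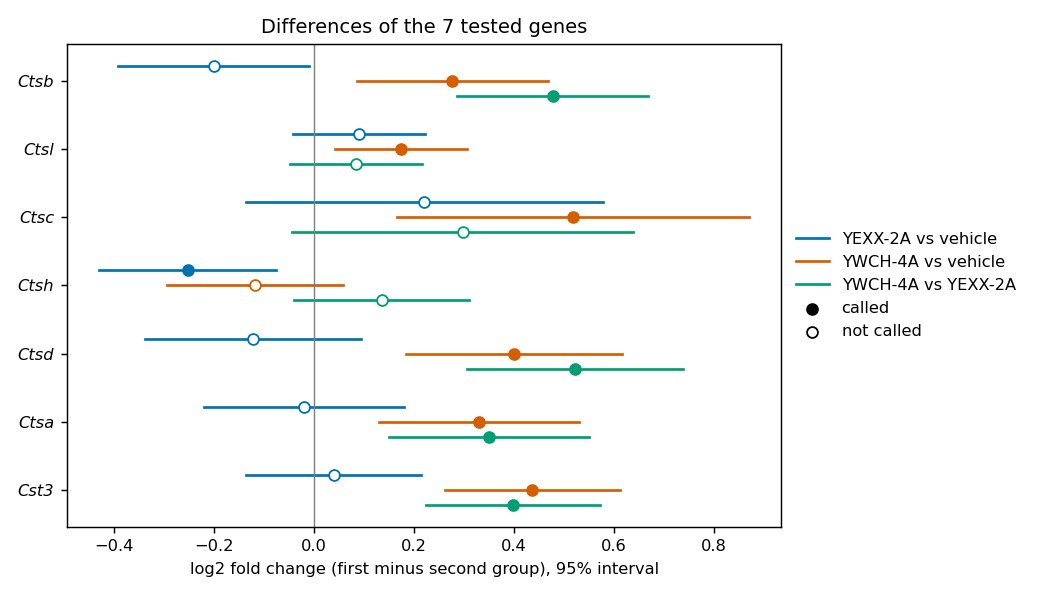
Log2 fold change with its 95% interval for the 7 tested genes in the 3 comparisons, filled where called. Between the compounds Ctsb, Ctsd, Ctsa and Cst3 lie between 0.35 and 0.52, and against vehicle the single filled YEXX-2A point is Ctsh at -0.25.

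Ctss, Ctsk and Ctsz had too few counts to be tested. Ctss, known for cutting the invariant chain in antigen-presenting cells, had 4, 3 and 0 counts in vehicle libraries, 4, 10 and 3 with YEXX-2A and 12, 16 and 6 with YWCH-4A. Pooled and scaled to depth, the YWCH-4A level was 3.58 times that of vehicle (exact 95% interval 1.56 to 9.57), an interval that covers counting error only. Tested without the count filter it was not called (log2 fold change 1.79, SE 0.70, adjusted p = 0.0879). It entered edgeR's test when 1 of 4 libraries was left out, with an adjusted p of 0.046 without vehicle replicate 2, 0.149 without vehicle replicate 3, 0.0917 without YEXX-2A replicate 3 and 0.077 without YWCH-4A replicate 3. It thus passed the threshold in 1 of these 4 settings.

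Ctsk had 1, 1 and 0 counts with vehicle, 3, 5 and 0 with YEXX-2A and 1, 6 and 3 with YWCH-4A, a YWCH-4A to vehicle ratio of 3.69 with an exact interval of 0.785 to 34.6. Ctsz had 1 count in all vehicle libraries and 3 in each compound group (ratio 2.21, interval 0.178 to 116, for YWCH-4A). No difference was detectable at this depth for either. In the GRCr8 annotation Ctsz overlaps Nelfcd (13.9 to 20.9 CPM), Ctsd overlaps Tnni2 (at most 0.0651 CPM) and Ctsa overlaps Pltp (7.63 to 14.2 CPM) and Neurl2 (1.43 to 2.81 CPM). Strand was not stated, so reads in such stretches cannot be assigned.

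Other proteases of the lysosome are given from a list of related genes. Of 14 further cathepsins and lysosomal peptidases in the table, 4 were tested. Lgmn, the asparaginyl endopeptidase that processes cathepsin precursors, held 199, 241 and 194 CPM with vehicle, 168, 165 and 172 CPM with YEXX-2A and 278, 272 and 286 CPM with YWCH-4A. The 3 groups did not overlap, a layout not counted over all genes. It rose with YWCH-4A (0.40, SE 0.08, adjusted p = 0.0035), fell with YEXX-2A (-0.33, SE 0.08, adjusted p = 0.0159) and differed by 0.73 between the compounds (SE 0.08, adjusted p = 7.32e-05).

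Tpp1, a tripeptidyl peptidase, rose with YWCH-4A by 0.39 (SE 0.06, adjusted p = 0.00065) and was at -0.12 with YEXX-2A (adjusted p = 0.14). Ctsf was at 0.11 with YWCH-4A (adjusted p = 0.453) and Ctsw at -0.07 (0.59). With YEXX-2A they were at -0.16 (0.243) and -0.20 (0.101). For both, every YWCH-4A library lay above every YEXX-2A library, as for 29.9% of all genes tested, without a call (adjusted p = 0.0745 and 0.303).

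Among 15 further cystatins and protease inhibitors in the table, 5 were tested. With YWCH-4A, Cstb, the cystatin that works inside the cell, rose by 0.52 (SE 0.10, adjusted p = 0.0031), and Reck, a membrane inhibitor of matrix metalloproteinases, rose by 0.25 (SE 0.08, adjusted p = 0.0454). Serpinb6a, a cytosolic serpin, fell by 0.35 (SE 0.07, adjusted p = 0.00224), while Serpinb1a (0.05) and Serpinb9 (0.38) did not pass the test. With YEXX-2A, Serpinb1a fell by 0.55 (SE 0.09, adjusted p = 0.00382). The other four were at 0.25 (Cstb), 0.20 (Serpinb9), -0.07 (Serpinb6a) and -0.10 (Reck), with no call.

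The lists below are read against the shares of all genes tested given above, 15.7% higher and 14.9% lower for YWCH-4A, 17.6% and 18.5% for YEXX-2A, and 16.2% and 15.1% between the compounds. Of 33 tested lysosomal hydrolases outside the 10, 12 (36.4%) rose with YWCH-4A and 2 (6.06%) fell, with a median of 0.18. With YEXX-2A 5 (15.2%) rose and 4 (12.1%) fell, no more than among all genes (median -0.11). Lipa, the acid lipase, rose by 0.99 with YWCH-4A (SE 0.07, adjusted p = 1.96e-06) and by 0.42 with YEXX-2A (SE 0.07, adjusted p = 0.00373). Neu1, the sialidase that Ctsa protects, rose by 0.90 (SE 0.08, adjusted p = 9.23e-06) and by 0.43 (SE 0.08, adjusted p = 0.00503). Prcp, a carboxypeptidase, fell with YWCH-4A by 0.80 (SE 0.07, adjusted p = 1.11e-05), and Ppt1, a thioesterase, rose with YEXX-2A by 0.40 (SE 0.08, adjusted p = 0.00583). Between the compounds 17 hydrolases (51.5%) were higher with YWCH-4A and 2 (6.06%) lower (median 0.30), led by the mannosidase gene Manba at 0.99 (SE 0.07, adjusted p = 3.93e-06).

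The membrane of the lysosome and its proton pump, the V-ATPase, were covered by 28 tested genes. Of these 13 (46.4%) rose with YWCH-4A and 2 (7.14%) fell, with a median of 0.23. With YEXX-2A 2 (7.14%) rose and 3 (10.7%) fell, shares below those of all genes (median -0.06). The pump subunits Atp6v1g1 and Atp6v1e1 rose with YWCH-4A by 0.61 and 0.64 (adjusted p = 3.11e-05 and 0.000242), and the tetraspanin Cd63 rose by 0.43 (adjusted p = 0.00023). Npc1, the cholesterol transporter, fell with YEXX-2A by 0.27 (adjusted p = 0.0201) and differed by 0.72 between the compounds (adjusted p = 3.08e-05). In that direct comparison 11 of the 28 (39.3%) were higher with YWCH-4A and 1 (3.57%) lower. Atp6v0c fell (-0.37, adjusted p = 0.0248) and Atp6ap2 rose (0.32, adjusted p = 0.0237) with YEXX-2A.

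Sorting genes deliver the cathepsins to the lysosome. Of 13 tested, 3 (23.1%) rose and 2 (15.4%) fell with YWCH-4A, near the shares of all genes (median -0.10). With YEXX-2A 4 (30.8%) rose and 6 (46.2%) fell (median -0.23). With YWCH-4A the retromer subunit Vps29 rose by 0.40 (adjusted p = 0.00103), Gnptab, which makes the mannose 6-phosphate tag, by 0.33 (adjusted p = 0.011) and the receptor M6pr by 0.25 (adjusted p = 0.0148). With YEXX-2A the adaptors Gga3 and Gga2 each fell by 0.49 (adjusted p = 0.00328 and 0.00917) and the large receptor Igf2r fell by 0.32 (adjusted p = 0.0107). Between the compounds 3 were higher with YWCH-4A (Vps29, Gga3 and Gga2) and none of the 13 lower.

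The list of TFEB and related regulators was mixed. Of 9 tested, 3 (33.3%) rose and 2 (22.2%) fell with YWCH-4A (median 0.38), and 1 (11.1%) rose and 4 (44.4%) fell with YEXX-2A (median -0.26), few genes to set against a share. Tfeb itself fell with both, by 0.57 with YWCH-4A (SE 0.12, adjusted p = 0.00384) and by 0.60 with YEXX-2A (SE 0.12, adjusted p = 0.00723), and the compounds differed by 0.02 (adjusted p = 0.897). Gpnmb, a lysosomal glycoprotein that TFEB-family factors induce, rose from 334 ± 17.9 to 759 ± 22.4 CPM with YWCH-4A (1.19 on the log2 scale, SE 0.06, adjusted p = 1.81e-07) and fell with YEXX-2A (-0.34, SE 0.06, adjusted p = 0.00444). Sqstm1, another gene of this list, fell with both, at -0.38 with YWCH-4A (SE 0.09, adjusted p = 0.00838) and -0.33 with YEXX-2A (SE 0.09, adjusted p = 0.0228). Flcn, a regulator of these factors, rose by 0.38 with YWCH-4A (adjusted p = 0.006) and fell by 0.33 with YEXX-2A (adjusted p = 0.0181). Rragd, a lysosomal GTPase that passes nutrient signals, was 0.98 higher on the log2 scale with YWCH-4A than with YEXX-2A (SE 0.18, adjusted p = 0.00238).

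Taking the hydrolase, membrane, sorting and TFEB lists as 1 set of 83 tested genes, 12 (14.5%) rose and 17 (20.5%) fell with YEXX-2A, near the shares of all genes. With YWCH-4A 31 (37.3%) rose and 8 (9.64%) fell, and 35 (42.2%) were higher and 3 (3.61%) lower with YWCH-4A than with YEXX-2A. The YEXX-2A counts were 5 and 6 without its replicate 1, 4 and 4 without its replicate 2, and 7 and 12 without any one YWCH-4A library. The calls over all genes for YEXX-2A moved with them, from 4145 to 1459, 1044 and 2923 to 3090. The YWCH-4A counts against vehicle stayed between 22 and 45 higher and between 4 and 9 lower when any one library was left out, with 4 or 5 lower without any one library of either compound. Between the compounds the count of 35 was 22 without YEXX-2A replicate 2 or YWCH-4A replicate 3 and 23 without YWCH-4A replicate 1, where the calls over all genes were 2225, 2293 and 2288 in place of 3593.

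**Figure D4:**
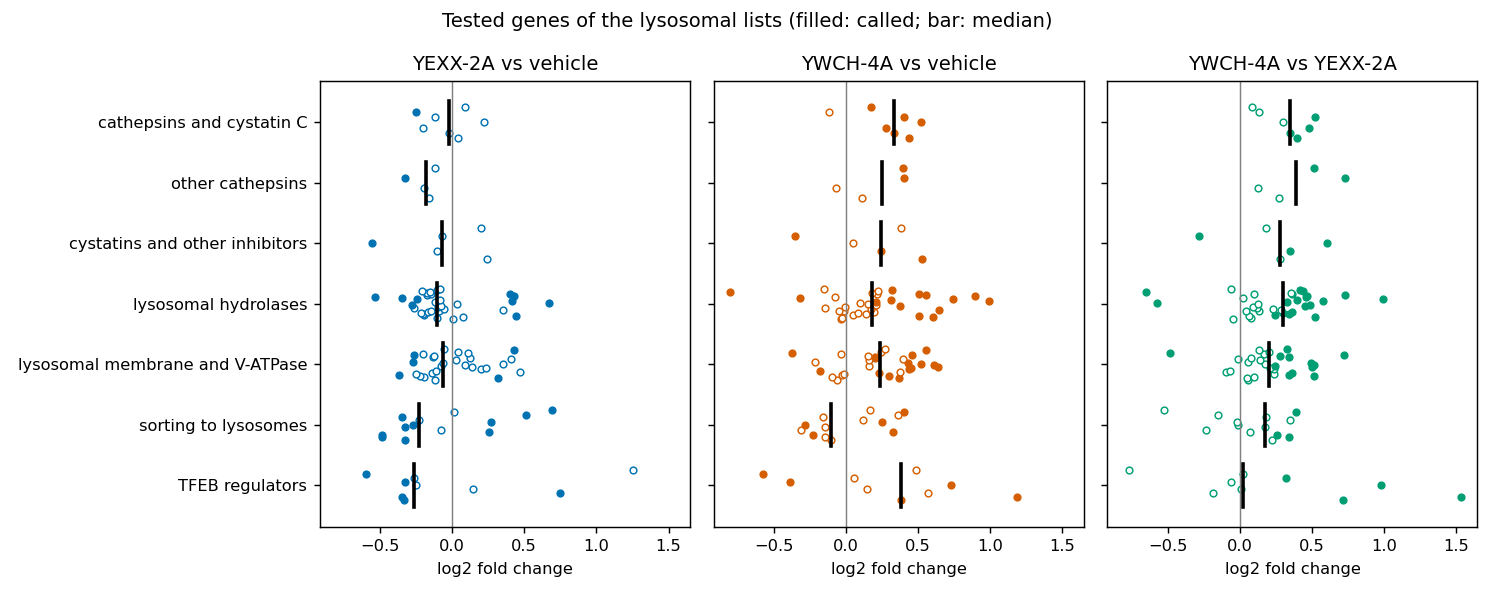
Log2 fold change of every tested gene of the 10 and of 6 lysosomal lists in the 3 comparisons, filled where called, with a black bar at each median. The medians of the 10 genes' tested members are -0.02, 0.33 and 0.35, and those of the hydrolases -0.11, 0.18 and 0.30.

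The annotation deposited with the table also marks genes with the KEGG lysosome term. Without the members, 103 of these 138 genes were tested. With YWCH-4A 34 (33%) rose and 5 (4.85%) fell (median 0.15), and between the compounds 37 (35.9%) were higher with YWCH-4A and 7 (6.8%) lower (median 0.19). With YEXX-2A 17 (16.5%) rose and 20 (19.4%) fell, close to the shares of all genes (median -0.12). This list overlaps those above and was added after the table was seen.

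Markers of other cells moved with YWCH-4A in part. The 13 macrophage and leukocyte markers summed to 137 to 181 CPM with vehicle, 147 to 150 CPM with YEXX-2A and 460 to 470 CPM with YWCH-4A, nearly all of it from Cd68 and Cd74. Cd74, the invariant chain that Ctss cuts, rose by 1.99 (SE 0.10, adjusted p = 1.42e-07), and Cd68, itself a lysosomal membrane protein, by 0.37 (SE 0.10, adjusted p = 0.019). The other 11, among them Ptprc, Tyrobp and Csf1r, summed to at most 0.391 CPM with vehicle, 1.37 CPM with YEXX-2A and 0.311 CPM with YWCH-4A. At 0 in every library of a group were 6 of them with vehicle, 1 with YEXX-2A and 6 with YWCH-4A. Fibroblast markers, mostly Col1a1 and Col3a1, summed to 42800 to 55800 CPM with vehicle, 32200 to 35400 CPM with YEXX-2A and 10400 to 11300 CPM with YWCH-4A. Of the 6 tested, 3 (50%) were called lower with YWCH-4A than with vehicle, against 14.9% of all genes, and 3 were not called. Those 3 were Pdgfrb (162 CPM with vehicle and 170 CPM with YWCH-4A), S100a4 (284 and 333 CPM) and Lum (43.1 and 32.7 CPM). The epithelial list summed to 1710 to 2200 CPM, 1480 to 1570 CPM and 897 to 946 CPM, almost all of it Krt8. The 13 mitochondrially encoded genes, a sign of RNA and cell quality, summed to 15900 to 21300 CPM, 23300 to 26500 CPM and 17700 to 18800 CPM, with 8 of them called higher with YEXX-2A than with vehicle (median 0.60) and 11 called lower with YWCH-4A than with YEXX-2A (median -0.74). The part of these shifts in the values of the cathepsins was not tested.

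Of the 7 tested genes Ctsc had the widest range between group means (0.55 on the log2 CPM scale), and it was taken for a search of like profiles. That rank rests on vehicle replicate 2: without it the ranges were 0.33 for Ctsc, 0.54 for Ctsd, 0.53 for Cst3, 0.48 for Ctsb and 0.45 for Ctsa. The 3 of 8219 genes with at least 10 CPM whose profile over the 9 libraries lay nearest to it were Ralgapa2, Mlkl and Rhoq, with root mean square differences of 0.0658, 0.0689 and 0.0760. They too rose with YWCH-4A, by 0.65 (adjusted p = 0.00516), 0.53 (adjusted p = 0.0109) and 0.59 (adjusted p = 0.00818). Likeness to Ctsc chose them, so these changes are a description.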

How the data were processed

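The authors deposited 1 table with an expected count (an estimated number of reads) and an FPKM value for each of 22050 genes and 9 libraries, per the file headers. Per the labels' protocols, mRNA was enriched with oligo(dT) beads and libraries were made with an NEBNext Ultra kit. The submitters' processing notes name StringTie 1.3.1, RSEM, DESeq2 and edgeR without a role. The aligner, build and annotation are not given in the sources used here. A second table of group means was not used.

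Expected counts were rounded, filtered with filterByExpr (minimum count 10, 11473 genes left) and scaled with TMM. Each comparison was tested with edgeR 4.0.16 (robust quasi-likelihood, R 4.3.3) across all genes of all 9 libraries, with group as the factor, and adjusted by Benjamini-Hochberg over all genes tested. The groups shared 1 estimate of spread although their spread differed. Tests are two-sided. Standard errors are the log2 change over the square root of F, and 95% intervals use the fit's degrees of freedom. The fit was tested on simulated data with the same spread in each group, so that test does not cover groups of unequal spread. Alternatives were other scalings and filters, DESeq2 1.42.0, limma 3.58.1 (voom, voom with group weights, and log2(FPKM + 1) or log2(FPKM + 0.1)), the 2 compared groups alone, a replicate block, and each library left out, 20 in all.

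The 10 genes and the lists were chosen with earlier results of these data known. Of 123 list entries 115 matched the table. Named outside the 10 were all tested further cathepsins and inhibitors, the 3 smallest p-values per comparison of each other list (some repeated genes are given once), and the 3 genes nearest in profile. Sqstm1 of the TFEB list was named in addition. Promoter windows are RefSeq's, GRCr8, matched by symbol.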

Additional observations from a re-analysis of the deposited data

How the results depend on the processing

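Over the 20 alternatives of each of the 7 tested genes, most values kept direction and call, counting those that stayed uncalled. These were 123 values for YEXX-2A against vehicle, 104 for YWCH-4A and 130 between the compounds. A call was lost in 10 values for YEXX-2A (all of Ctsh), 34 for YWCH-4A and 2 between the compounds. In the same order, a call was gained in 1, 0 and 8. For YEXX-2A against vehicle, 4145 genes were called, and 1408 with the 2 groups alone, 1931 with a replicate block and 1044 to 5308 with 1 library left out. Of the 10 genes 1 was called (Ctsh), and 0 on either FPKM scale, with the 2 groups alone or with the replicate block, and 0 to 2 with 1 library left out. For YWCH-4A against vehicle, 3516 genes were called, 2749 with the 2 groups alone, 2787 with the replicate block and 2450 to 4588 with 1 library left out. Of the 10, 6 were called, 2 with the 2 groups alone, 4 with the replicate block and 2 to 7 with 1 library left out, or 2 to 6 over the 7 tested genes, that is, without Ctss. Between the compounds 3593 genes were called, and 5994 with group quality weights, 5903 with the 2 groups alone and 2225 (without YEXX-2A replicate 2) to 6001 (without vehicle replicate 2) with 1 library left out.

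Reversed signs occurred for values that were not called. For YEXX-2A against vehicle Ctsa was 0.0709 and 0.0716 on log2(FPKM + 1) and log2(FPKM + 0.1), and -0.0886 to 0.0999 with 1 library left out. Ctsd ranged from -0.1953 to 0.0171 and Cst3 from -0.0352 to 0.1263 in the same way. Ctsh against vehicle with YWCH-4A was 0.0779 and 0.0791 on the FPKM scales. The cause was not tested. The log2(FPKM + 1) scale moved the median of all genes by 0.0726, 0.179 and 0.0759 in the 3 comparisons. Relative to it, the YWCH-4A changes against vehicle were 0.44 for Cst3, 0.43 for Ctsc, 0.41 for Ctsd, 0.33 for Ctsa, 0.28 for Ctsb, 0.17 for Ctsl and -0.10 for Ctsh. The share of called genes that were higher was 48.8%, 51.2% and 51.7%, against 62%, 78.1% and 72.6% on log2(FPKM + 1) and 60.9%, 77.8% and 73.4% on log2(FPKM + 0.1). Of the hydrolase, membrane, sorting and TFEB genes, 50 were then called higher with YWCH-4A than with vehicle and 4 lower.

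Replicate numbers did not pair the libraries: same-numbered libraries correlated between -0.265 and 0.081, and 0 of 9 correlated best with a library of their own number. With the replicate block, Ctsh with YEXX-2A (adjusted p = 0.0706) and Ctsb and Ctsl with YWCH-4A (0.0688 and 0.0941) were no longer called. Ctsk, Ctss and Ctsz, near-absent in all libraries, had too few counts at this depth for the main test.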
